A study of Mus musculus with 12 samples.

Results

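The TGF-beta (transforming growth factor beta) pathway was followed through 9 genes, chosen by name, of the 32285 genes in the expression matrices. They are the ligands Tgfb1, Tgfb2 and Tgfb3, the receptors Tgfbr1 and Tgfbr2, the signal transducer Smad3, its antagonist Smad7, the target gene Tgm2 and the corepressor Skil. Nuclei of 8 wild-type male mice, 10 to 12 weeks old, of the strain C57BL6J per the labels and C57BL/6NTac per the study's methods, were sequenced in 3 states, and a mouse number marks 1 liver followed through all 3 states. Liver (L) was a piece of the median lobe, frozen after the blood had been rinsed out and before any collagenase. Cell Suspension (CS) was the same liver after collagenase perfusion, filtering and low-speed centrifugation, a procedure that enriches hepatocytes and leaves some other cells. Primary Hepatocytes (PH) were that suspension plated on collagen, kept for 24 hours in medium with serum, dexamethasone and insulin, and lifted with trypsin. No group had TGF-beta or an inhibitor added, and PH differ from CS in plating, medium, time and trypsin at once.

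TGF-beta ligands are secreted in a latent form, held by their own propeptide until integrins or proteases release them. The active dimer joins the type II receptor Tgfbr2 to the type I receptor Tgfbr1, which phosphorylates Smad2 and Smad3, and these enter the nucleus with Smad4 and act on target genes. Smad7 is itself induced by the signal and shuts down the receptor, and Skil (SnoN) binds the Smads on DNA and represses them. In the liver the pathway is known for driving collagen production by stellate cells, for restraining hepatocyte growth and for hepatocyte dedifferentiation.

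The 24 samples gave 53467 nuclei, of which 20024 were L, 15049 CS and 18394 PH. Libraries were made in 6 pools, each of 4 samples told apart by hashtags, and only 2 of the pools held both L and PH. The UMIs (unique molecular identifiers, 1 per captured RNA molecule) of each sample and cell type were summed, which gave 24 sums for hepatocytes (2104087 to 29023569 UMIs), 24 for endothelial cells (95289 to 2578536), 23 for stellate cells (27630 to 754882) and 19 for Kupffer cells, the resident macrophages (21464 to 837797). Leukocyte and biliary sums were complete in L only, with 8 samples each. Cell types came from the authors' annotation. Summed endothelial markers were 13015 to 17146 CPM (UMIs scaled to a common library total) in endothelial nuclei of L and 36.9 to 58.9 CPM in hepatocyte nuclei of L. Kupffer sums also held hepatocyte markers, at a mean of 3929 CPM in L beside 6388 of Kupffer markers, and in the 3 PH sums at 4893 beside 2432. In the biliary class, mesothelial markers summed to 2887 CPM in cluster 28, which held 157 of the 220 L nuclei, and to 8.56 in cluster 30, so its levels in L are those of a mixed class. The authors' cultured class held hepatocyte, endothelial and stellate clusters, which were separated by these markers. Markers fell in culture too, since hepatocyte markers summed to 11551 to 16185 CPM in hepatocyte nuclei of L and 3001 to 7527 CPM in those of PH. Across pools, 337 barcodes occurred more than once.

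In frozen Liver, the level of each member was described by cell type, read here as plain CPM, the share of a sum's own UMIs, over 8 L samples. Tgfb1 was highest in Kupffer cells, at 126 ± 20.0 CPM (SD, n = 8), followed by leukocytes at 95.7 ± 59.3, endothelial cells at 75.3 ± 18.8, stellate cells at 23.4 ± 11.1 and the biliary class at 4.32 ± 6.68. It was lowest in hepatocytes, at 1.21 ± 0.375 CPM. Only the step from endothelial to stellate cells had sample ranges that did not meet. Tgfb2 had another order, led by the biliary class at 176 ± 111 CPM, then stellate cells at 57.4 ± 30.7 and endothelial cells at 40.8 ± 13.0. Kupffer cells, leukocytes and hepatocytes lay below these, at 7.66, 4.38 and 1.89 CPM, and the step from endothelial to Kupffer cells was again the only one without overlap. The low Tgfb3 was highest in the biliary class, at 43.1 ± 34.6 CPM, where all 33 of its UMIs were in cluster 28 and 0 in cluster 30.

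The receptors were spread more evenly over the types. Tgfbr1 was highest in Kupffer cells of L, at 340 ± 62.0 CPM, with no overlap with the next type, stellate cells at 155 ± 32.1. Below these, hepatocytes, leukocytes, the biliary class and endothelial cells lay between 129 and 94.5 CPM, each overlapping its neighbour. Tgfbr2 was highest in leukocytes, at 339 ± 101 CPM, then near 220 to 241 CPM in the biliary class, endothelial cells and Kupffer cells. Stellate cells followed at 114 ± 17.7 CPM and hepatocytes at 64.4 ± 25.1 CPM. Of these steps only that from Kupffer to stellate cells lacked overlap, while the wide range of the biliary class reached over both. Smad3 ranged from 403 ± 151 CPM in leukocytes to 98.7 ± 32.5 CPM in Kupffer cells with every step overlapping. Smad7 was highest in endothelial cells, at 196 ± 25.9 CPM, and lowest in hepatocytes, at 89.3 ± 35.2 CPM, again with every step overlapping. Tgm2 fell from 87.6 ± 51.7 CPM in the biliary class to 34.9 ± 12.7 CPM in endothelial cells, and then without overlap to 8.40 ± 2.58 CPM in hepatocytes, with leukocytes at 6.01. Skil led in Kupffer cells, at 164 ± 40.6 CPM, and was lowest in hepatocytes, at 20.3 ± 3.03 CPM. These levels between cell types are a description and were not tested.

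**Figure D1:**
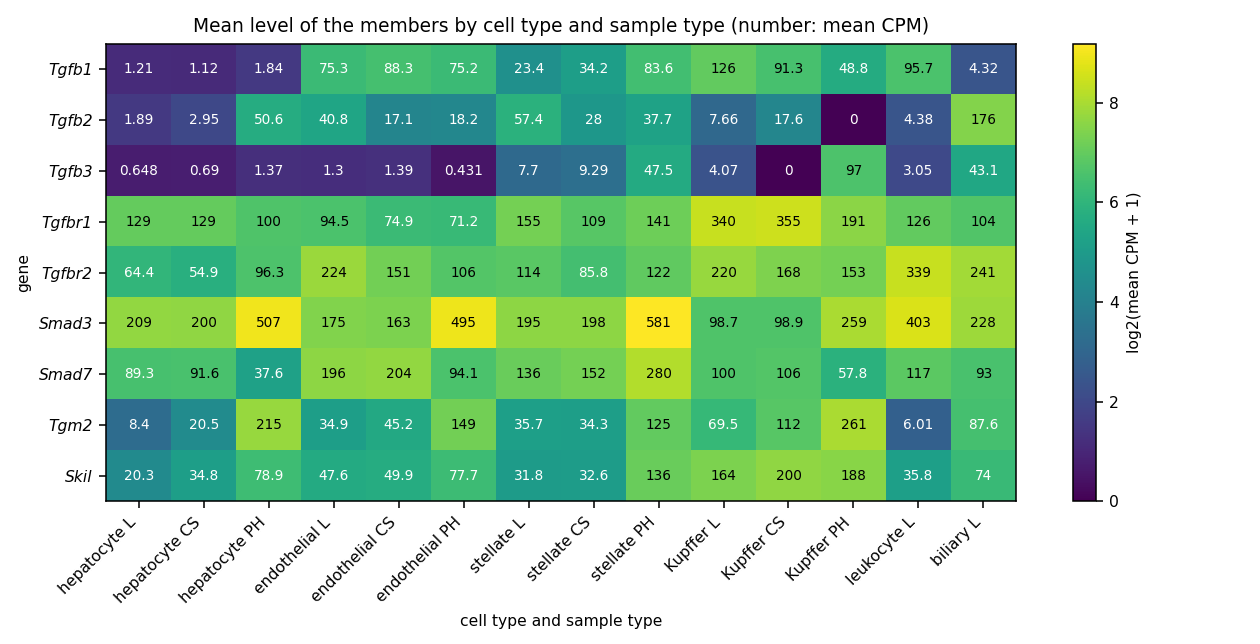
Mean plain CPM of the 9 members (rows) in each group and cell type with at least 3 samples (columns), printed in each cell and coloured on a log2(CPM + 1) scale that serves each gene's own comparison, not comparison between genes. Tgfb2 in hepatocytes goes from 1.89 CPM in L and 2.95 in CS to 50.6 in PH, and Tgm2 from 8.40 and 20.5 to 215. Plain CPM lacks the scaling between samples used in the tests, where hepatocyte Tgfb2 was 18.4-fold higher in PH than in L. Hepatocyte Tgfb1 and Tgfbr2, higher here in PH than in L, were not called there.

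The comparisons between groups address what isolation and culture do to the pathway within a cell type, and use edgeR's quasi-likelihood test on the summed UMIs, with levels given as TMM CPM (CPM after edgeR's scaling between samples) and Benjamini-Hochberg adjusted p over all genes tested. In hepatocyte nuclei, 6 of the 9 members differed between PH and L, 4 higher and 2 lower. Of all 26778 genes tested there, 53.7% differed. Tgfb2, Tgm2, Skil and Smad3 rose in culture, Smad7 and Tgfbr1 fell, and Tgfb1, Tgfb3 and Tgfbr2 did not pass. PH against CS gave the same split, 4 higher and 2 lower, where 50.4% of all genes differed. CS against L gave 3 members higher and none lower by the same test, against 22.3% of all genes, with no further member at an unadjusted p under 0.05. Both PH comparisons share the PH samples and both L comparisons the L samples, so they are not separate lines of evidence.

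In endothelial nuclei, 7 members differed between PH and L, 3 higher (Tgm2, Smad3, Skil) and 4 lower (Tgfb2, Tgfbr2, Smad7, Tgfbr1), where 33.8% of the 18279 genes tested differed. PH against CS gave 4 members (20.0% of all genes) and CS against L 1 member (3.90%). In stellate nuclei, PH against L gave 5 members, all higher, with 24.8% of 14340 genes differing. CS against L gave 0 members called in stellate nuclei (2.27% of all genes) and 0 in Kupffer nuclei (1.25% of 13948 genes) by edgeR. At an unadjusted p under 0.05 there were 3 in each, and DESeq2 called 0 in stellate nuclei and 1, Tgm2, in Kupffer nuclei. PH held only 3 Kupffer sums, the fewest allowed for a comparison, and no culture comparison was made for Kupffer cells. Stellate PH was not compared with CS. The shares of the 9 members called were thus 66.7% beside 53.7% of all genes in hepatocyte PH against L, 66.7% beside 50.4% in hepatocyte PH against CS, 77.8% beside 33.8% in endothelial PH against L, 44.4% beside 20.0% in endothelial PH against CS and 55.6% beside 24.8% in stellate PH against L. The members were chosen with results of these data known and the shares were not tested against each other, so nothing particular to the pathway is read from them.

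Tgfb2, the isoform best known from development, had the largest log2 fold change of the 9 members in hepatocyte PH against L and PH against CS, while from L to CS those of Tgm2 and Skil were larger. The gene lies on the minus strand at chr1:186622792-186705989 (GRCm38). In hepatocyte nuclei the lowest, median and highest of 8 samples were 1.55, 2.01 and 2.77 TMM CPM in L, 2.35, 3.32 and 5.79 in CS, and 28.1, 39.1 and 52.2 in PH. Every PH sample lay above every L and CS sample, while CS and L overlapped. The mean rose from 2.08 ± 0.407 to 38.0 ± 7.35 TMM CPM (SD, n = 8 each), a log2 fold change of 4.20 (SE 0.17, 18.4-fold, adjusted p = 4.14e-19, edgeR). The rise was visible before culture, at a log2 fold change of 0.78 (SE 0.18, adjusted p = 0.00161, edgeR) from L to CS. All 5 hepatocyte clusters in the authors' cultured class carried it, at 30.3 to 62.2 plain CPM. In CS, nuclei of the cultured clusters 0, 1 and 8 held 6, 5 and 20 of the 198 hepatocyte Tgfb2 UMIs, at 78.3, 102 and 19.3 plain CPM. The large CS clusters 2, 4, 7, 10 and 21 held 1.46 to 2.63. An alternative fit left out cluster 8 but not clusters 0 and 1. The part of all these cultured clusters together in the rise from L to CS was thus not tested. The rise from L to CS was 0.64 and did not pass (adjusted p = 0.228, edgeR) when sums were thinned to equal depth.

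Markers of other cells also rose in the same hepatocyte sums, and their part in the result was not tested. All 12 endothelial markers had UMIs, summing to 36.9 to 58.9 plain CPM in L and 132 to 185 in PH. All 10 stellate markers had UMIs, summing to 20.0 to 47.0 in L and 80.1 to 644 in PH. The hepatocyte level of Tgfb2 in PH, 50.6 ± 7.79 plain CPM, was itself above that in PH endothelial nuclei, 18.2 ± 7.31. Per sample it was 283% of the endothelial level (median of 8, range 169 to 561), where the endothelial markers in hepatocyte nuclei were 2.01% of theirs. The PH hepatocyte range also overlapped that of PH stellate nuclei, which had a mean of 37.7 ± 27.6 plain CPM.

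Tgfb1, the main isoform of blood and immune cells, did not pass in hepatocytes with TMM. The gene lies on the plus strand at chr7:25687002-25705077 (GRCm38). Its lowest, median and highest values in hepatocyte nuclei were 0.437, 1.44 and 1.66 TMM CPM in L, 0.798, 1.29 and 2.13 in CS, and 1.17, 1.33 and 1.64 in PH. The 3 groups overlapped throughout. The PH against L log2 fold change was -0.01 (SE 0.18, adjusted p = 0.977, edgeR), from 174 UMIs in L and 209 in PH. With library size scaling it passed as higher, at 0.57 for PH against L and 0.68 for PH against CS (adjusted p = 0.0116 and 0.00659, edgeR). In plain CPM the hepatocyte level was 1.78%, 1.27% and 2.44% of the endothelial level of the same sample in L, CS and PH (medians of 8), beside 0.324%, 0.516% and 2.01% for the summed endothelial markers. In PH both ratios were thus close. Whether RNA of other cells makes up the Tgfb1 UMIs of hepatocyte nuclei was not tested. Among the authors' hepatocyte clusters, cluster 8, with a median of only 1608 UMIs per nucleus, held 6.41 plain CPM of Tgfb1 and the others 0.764 to 3.46.

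The promoters of these isoforms are shown because their log2 fold changes in hepatocyte PH against L were the closest to 0 and the largest of the members. Each line gives the 250 bases before the transcript start from RefSeq (GRCm38.p6), on the gene's strand. The Tgfb1 window is chr7:25686752-25687001, plus strand, and the Tgfb2 window chr1:186705990-186706239, minus strand. Capitals in Tgfb1 mark GC boxes (GGGCGG on either strand), and capitals in Tgfb2 mark the Smad-binding letters CAGAC and a TATA box (TATAAA).
Tgfb1: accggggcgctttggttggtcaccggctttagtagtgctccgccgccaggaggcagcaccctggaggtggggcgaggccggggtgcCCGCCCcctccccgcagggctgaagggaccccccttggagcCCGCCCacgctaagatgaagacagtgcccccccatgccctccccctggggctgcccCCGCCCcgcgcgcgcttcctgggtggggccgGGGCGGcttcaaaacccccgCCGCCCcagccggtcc
Tgfb2: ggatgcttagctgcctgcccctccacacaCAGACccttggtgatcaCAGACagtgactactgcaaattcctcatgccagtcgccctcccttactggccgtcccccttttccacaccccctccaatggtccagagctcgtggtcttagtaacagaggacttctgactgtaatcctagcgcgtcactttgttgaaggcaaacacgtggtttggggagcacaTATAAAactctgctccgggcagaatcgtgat
The Tgfb1 window held 5 GC boxes, starting 164, 123, 67, 36 and 16 bases before the start, and no TATA box. The Tgfb2 window held 2 CAGAC matches, 221 and 204 bases before the start, and a TATA box at 31 bases. Of 32851 windows of this length, 32.7% held a GC box, 42.2% CAGAC on either strand and 7.59% TATAAA on the gene's strand. The AP-1 letters TGANTCA (6.75% of windows) and the cAMP response letters TGACGTCA (1.55%) were in neither. Tgfbr1, Tgfbr2 and Smad3 were the other members with an entry, 5 of 9 in all. Tgfbr1 has 2 such windows, of which 1 held 2 GC boxes and the other 1 CAGAC match, the Tgfbr2 window held 1 CAGAC match, and the Smad3 window 2 GC boxes. A match of letters is a description and was not tested for binding.

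In endothelial nuclei Tgfb2 moved the other way. Its lowest, median and highest values were 26.4, 41.8 and 65.1 TMM CPM in L, 2.83, 11.1 and 46.2 in CS, and 7.61, 16.7 and 26.9 in PH. All PH samples but the highest were below every L sample, and CS spread over both ranges. The log2 fold change was -1.43 for PH against L (SE 0.30, adjusted p = 0.000157, edgeR) and -1.32 for CS against L (SE 0.32, adjusted p = 0.00895, edgeR). PH against CS missed the threshold, at -0.12 (SE 0.39, adjusted p = 0.885, edgeR). The PH against L value was -0.89 with pool as a covariate (adjusted p = 0.104, edgeR) and -0.77 with spliced and ambiguous UMIs alone (adjusted p = 0.226, edgeR), and did not pass in either. The CS against L value did not pass with pool as a covariate at -0.85, when thinned at -1.16, with spliced and ambiguous UMIs at -1.90, or without mouse 2 at -1.13 or mouse 5 at -1.04 (adjusted p = 0.221, 0.282, 0.0841, 0.0523 and 0.0657, edgeR). The highest PH sample, mouse 7, was the smallest sum, with 29 nuclei and 95289 UMIs, and 58.6% of its nuclei lay in cluster 3, the main L cluster, against 4.15% of the nuclei over all PH samples. Its value for Tgm2, 53.7 TMM CPM, was the lowest of PH. Without mouse 7 the PH against L calls of Tgfb2 and Tgm2 were kept, in the same directions.

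Most Tgfb2 UMIs of L endothelial nuclei were in 1 of the authors' clusters, cluster 24, which was singled out after its values were seen. It held 269 of 2474 endothelial nuclei in L (10.9%), 24 of 1152 in CS (2.08%) and 0 of 1809 in PH, which allows a share of up to 0.166% of nuclei placed in this cluster, counting error only. The clusters themselves separate cultured from tissue nuclei, with 1733 of the 1809 PH nuclei in cluster 12 and 2 of the 2474 L nuclei, so the 0 sets no limit on such cells in PH. Of the 362 Tgfb2 UMIs in L endothelial nuclei, 306 were in this cluster, at 304 plain CPM, and 22 of 39 in CS, at 287 plain CPM. The main L cluster, cluster 3, held 7.53 plain CPM. Without cluster 24 the lowest, median and highest values were 0, 6.60 and 12.005 plain CPM in L, 2.58, 7.23 and 15.7 in CS, and 9.09, 18.4 and 31.5 in PH. The log2 fold change of PH against L was then 1.05, and that of CS against L -0.04. Leaving out nuclei chosen for high Tgfb2 lowers L and CS by construction, and any cultured counterparts stay in PH, so no test of a rise is read from these values. The other 6 endothelial members kept their calls and directions in PH against L without this cluster.

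**Figure D2:**
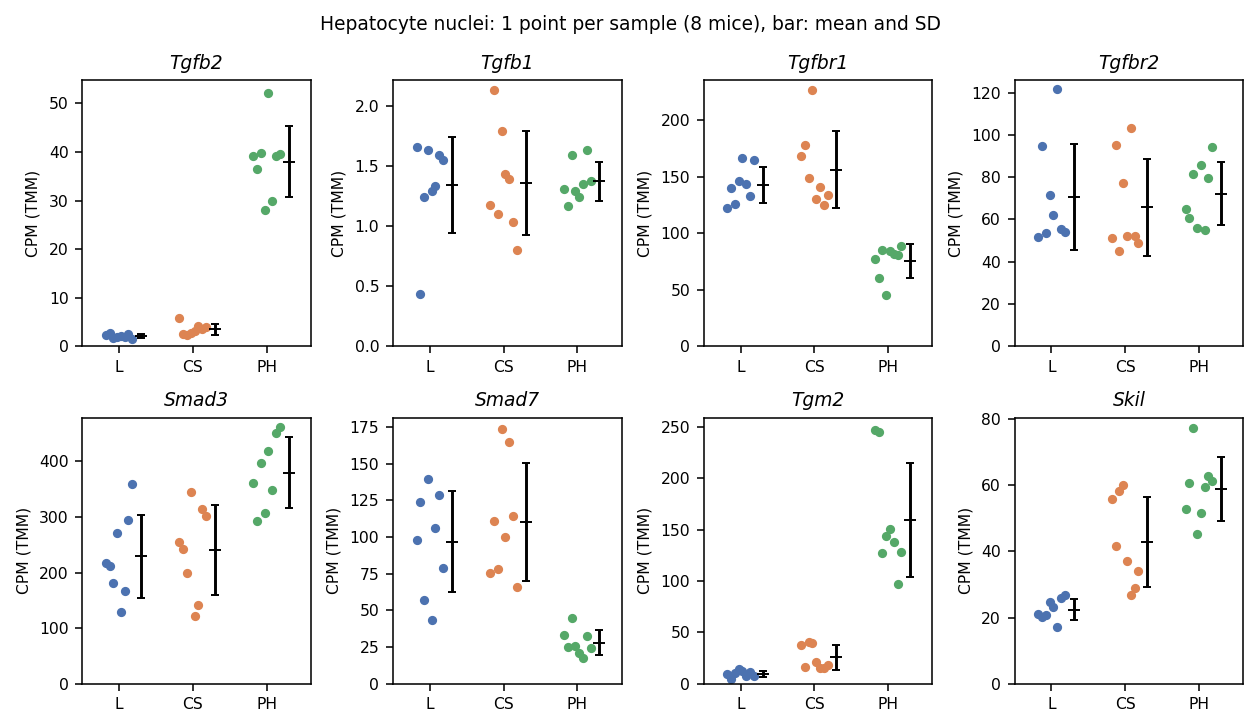
TMM CPM of 8 members in hepatocyte nuclei (linear axes from 0, 1 panel per gene, 1 point per mouse, bar at the mean with SD) in L, CS and PH. The PH points of Tgfb2, Tgm2 and Skil lie above all L points and those of Tgfbr1 below them, while Tgfb1 and Tgfbr2 overlap.

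**Figure D3:**
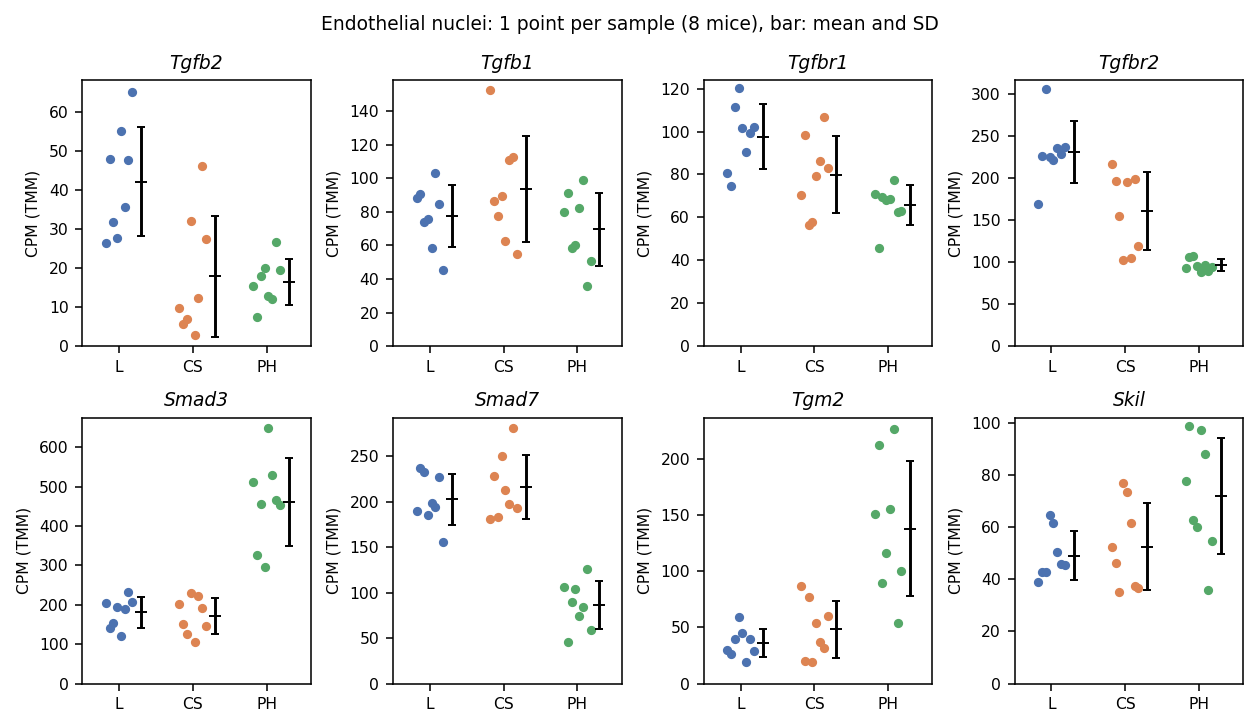
The same 8 members in endothelial nuclei (TMM CPM on linear axes from 0, 1 point per mouse, bar at the mean with SD). The PH points of Smad3 lie above all L points, those of Tgfbr2 and Smad7 below them, and Tgfb2 is drawn with cluster 24 included.

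In stellate cells, the collagen-producing pericytes of the liver, Tgfb1 and Tgfb3 passed as higher in PH against L and Tgfb2 did not pass. The response of stellate cells was not tested against that of the other types. Tgfb1 had lowest, median and highest values of 4.47, 33.5 and 40.3 TMM CPM in L and 20.6, 76.1 and 115 in PH. All PH samples but the lowest were above every L sample. The log2 fold change was 1.27 (SE 0.36, adjusted p = 0.00461, edgeR), from 90 UMIs in L and 49 in PH. In the PH stellate sums 3 UMIs would be 21.2 to 105 plain CPM. Tgfb3, linked in other tissues to scar remodelling, had 0, 9.98 and 18.01 TMM CPM in L and 0, 39.7 and 77.0 in PH. Its log2 fold change was 1.87 (SE 0.49, adjusted p = 0.00198, edgeR), from 30 UMIs in L and 26 in PH, and 1 PH and 2 L samples had none. Tgfb2 had a lowest, median and highest of 44.8, 54.8 and 163 TMM CPM in L and 0, 23.7 and 71.2 in PH, and missed the threshold at -0.90 (SE 0.39, adjusted p = 0.0788, edgeR). It had 199 UMIs in L and 25 in PH. It passed as lower without mouse 5, at -1.33, and without the PH nuclei annotated as non-cultured, at -1.15 (adjusted p = 0.0190 and 0.0468, edgeR). With pool as a covariate, Tgfb1 at 1.27 and Tgfb3 at 1.35 did not pass (adjusted p = 0.119 and 0.380, edgeR). When thinned, neither Tgfb1 at 0.79 nor Tgfb3 at 1.66 passed (adjusted p = 0.493 and 0.153, edgeR), and with spliced and ambiguous UMIs alone Tgfb1 did not, at 0.75 (adjusted p = 0.238, edgeR). Stellate markers in these nuclei summed to 7089 to 10822 plain CPM in L and 2602 to 3890 in PH, with all 10 detected in both, and endothelial markers to 203 to 556 and 132 to 1336.

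Tgfb3 (chr12:86056745-86079041, minus strand, GRCm38) was near the limit of counting elsewhere. In hepatocyte nuclei it had 90 UMIs in L, 49 in CS and 154 in PH, and PH against L missed the threshold at 0.48 (SE 0.28, adjusted p = 0.155, edgeR). It passed with pool as a covariate, at 1.30 (adjusted p = 0.00752, edgeR), and with library size scaling, at 1.05 (adjusted p = 0.00262, edgeR). Endothelial nuclei had 15, 3 and 2 Tgfb3 UMIs in L, CS and PH, and no comparison of these groups passed with TMM. With so few UMIs a difference could have been missed. In CS Kupffer nuclei it had 0 UMIs in all 8 sums, where 3 UMIs would be 14.3 to 140 plain CPM, against 13 UMIs in L. The 3 PH Kupffer sums held 8 Tgfb3 UMIs, at 97.0 ± 93.0 plain CPM, with 1 sum at 0, and were not tested.

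With all UMIs and TMM neither Tgfbr1 nor Tgfbr2 passed as higher in PH against L in the 3 cell types tested, while library size scaling made hepatocyte Tgfbr2 pass as higher in PH against L, at 0.58. For Tgfbr1, the type I kinase (chr4:47353222-47414931, plus strand, GRCm38), the lowest, median and highest values in hepatocyte nuclei were 122, 142 and 167 TMM CPM in L, 125, 145 and 227 in CS, and 45.7, 81.6 and 88.4 in PH. All PH samples lay below all L and CS samples in TMM CPM. In plain CPM they overlapped, with PH up to 114, L down to 106 and CS down to 103. For PH against L the log2 fold change was -0.92 (SE 0.13, 1.89-fold lower, adjusted p = 7.10e-07, edgeR), and CS against L did not pass, at 0.13 (SE 0.13, adjusted p = 0.536, edgeR). In endothelial nuclei it was -0.53 (SE 0.15, adjusted p = 0.00487, edgeR), from 97.6 ± 15.1 to 65.7 ± 9.38 TMM CPM, and the difference between both cell types did not pass, at 0.22 (SE 0.20, adjusted p = 0.484, edgeR). The endothelial value missed the threshold without mouse 8, at -0.42, with pool as a covariate, at -0.52, and when thinned, at -0.56, and it was -0.003 when only spliced and ambiguous UMIs were counted.

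For Tgfbr2, the ligand-binding type II receptor (chr9:116084293-116175360, minus strand, GRCm38), the cell types parted. In endothelial nuclei the lowest, median and highest values were 169, 228 and 306 TMM CPM in L, 103, 175 and 217 in CS, and 88.8, 95.1 and 108 in PH. Every PH sample was below every L sample, and the PH values were the tightest of the 3 groups. The log2 fold change was -1.27 for PH against L (SE 0.15, 2.41-fold lower, adjusted p = 6.36e-09, edgeR) and -0.79 for PH against CS (SE 0.16, adjusted p = 0.000247, edgeR). Clusters 24 and 26 of L held 426 and 408 plain CPM of Tgfbr2, cluster 3 of L 190 and cluster 12 of PH 89.4. Cluster 26 had 221 of 2474 endothelial nuclei in L and 1 of 1809 in PH, and its part in the fall was not tested. In hepatocyte nuclei the values were 51.9, 58.6 and 122 TMM CPM in L and 55.1, 72.3 and 94.1 in PH, wholly overlapping, with a log2 fold change of 0.03 (SE 0.19, adjusted p = 0.906, edgeR). With spliced and ambiguous UMIs alone that hepatocyte value was 0.83 and passed. Kupffer and stellate nuclei gave no call for either receptor with TMM and all nuclei, while stellate Tgfbr1 passed as lower in PH against L with nuclei of at least 1000 UMIs, at -0.66 (adjusted p = 0.0445, edgeR). Endothelial Tgfbr2 also passed as lower in CS against L with library size scaling, at -0.52, and without mouse 1, at -0.60.

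Smad3 (chr9:63646767-63757994, minus strand, GRCm38) passed as higher in PH against L in all 3 cell types tested, as did Tgm2 and Skil. In hepatocyte nuclei its lowest, median and highest values were 130, 214 and 360 TMM CPM in L, 121, 249 and 345 in CS, and 292, 379 and 462 in PH. The PH samples were high but overlapped the highest L and CS samples. For PH against L it gave a log2 fold change of 0.73 (SE 0.20, 1.66-fold, adjusted p = 0.00236, edgeR). In endothelial nuclei the values were 121, 192 and 233 in L, 105, 171 and 231 in CS, and 296, 461 and 648 in PH, without overlap. There the log2 fold change was 1.38 (SE 0.16, 2.60-fold, adjusted p = 3.94e-09, edgeR). In stellate nuclei they were 182, 220 and 340 in L and 308, 486 and 719 in PH, with a log2 fold change of 1.05 (SE 0.21, adjusted p = 3.39e-05, edgeR), and 1.08 without passing when spliced and ambiguous UMIs were counted alone (adjusted p = 0.182, edgeR). From L to CS the log2 fold change lay between -0.21 and 0.07 in the 4 types, and none passed by edgeR. Nearly all Smad3 UMIs were unspliced, 96.9% ± 0.749 in hepatocyte nuclei of L and 95.5% ± 0.839 in PH (SD, n = 8), so the measured rise is mostly one of unspliced RNA.

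Smad7, the feedback inhibitor on chromosome 18, moved opposite to Smad3 in hepatocytes and endothelial cells. In hepatocyte nuclei its lowest, median and highest values were 43.4, 102 and 140 TMM CPM in L, 65.9, 106 and 174 in CS, and 17.7, 25.2 and 45.1 in PH. Every PH sample was below every CS sample, and only the highest PH sample reached above the lowest L sample. In plain CPM the highest PH sample, at 60.2, also reached above the lowest CS sample, at 58.0. Against L, PH had a log2 fold change of -1.80 (SE 0.23, 3.48-fold lower, adjusted p = 7.74e-08, edgeR). In endothelial nuclei the values were 155, 196 and 237 TMM CPM in L, 180, 205 and 280 in CS, and 45.6, 86.7 and 125 in PH. All PH samples were below the rest in these values. In plain CPM the highest PH sample, at 147, met the lowest L sample, at 146. For PH against L the endothelial log2 fold change was -1.26 (SE 0.16, adjusted p = 9.48e-09, edgeR). In stellate nuclei the values were 108, 167 and 224 TMM CPM in L and 52.6, 245 and 366 in PH. The difference missed the threshold at 0.46 (SE 0.24, adjusted p = 0.158, edgeR). That stellate value passed, at 0.97, with RLE or library size scaling, at 0.99 with DESeq2, at 1.03 with the filterByExpr filter, at 1.52 when thinned, at 0.70 without the PH nuclei annotated as non-cultured and at 0.73 without mouse 7.

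Tgm2 (tissue transglutaminase, chr2:158116402-158146436, minus strand, GRCm38) crosslinks proteins of the extracellular matrix and is a described TGF-beta and retinoid target. In hepatocyte nuclei its lowest, median and highest values were 4.52, 9.58 and 13.8 TMM CPM in L, 14.8, 19.5 and 40.3 in CS, and 96.9, 141 and 247 in PH. The 3 groups formed 3 separate steps without overlap. Its log2 fold change was 1.45 from L to CS (SE 0.25, adjusted p = 4.51e-05, edgeR) and 4.07 from L to PH (SE 0.26, 16.8-fold, adjusted p = 2.70e-14, edgeR). In plain CPM the cultured hepatocyte clusters held 341 in cluster 0, 229 in cluster 8, 134 in cluster 1, 84.6 in cluster 14 and 57.0 in cluster 17. In endothelial nuclei the values were 18.9, 34.5 and 59.2 TMM CPM in L, 19.2, 45.4 and 86.9 in CS, and 53.7, 133 and 227 in PH. All PH samples but the lowest were above every L sample, and the log2 fold change of PH against L was 1.94 (SE 0.23, 3.85-fold, adjusted p = 4.99e-09, edgeR). In stellate nuclei it was 1.33 (SE 0.32, adjusted p = 0.000818, edgeR), and it was 0.73 and did not pass (adjusted p = 0.136, edgeR) without the PH nuclei that the authors annotated as a non-cultured type. With pool as a covariate it was 0.57 and did not pass (adjusted p = 0.567, edgeR). Kupffer nuclei of CS against L gave 0.70 (SE 0.25, adjusted p = 0.212, edgeR), and it passed with DESeq2 at 0.85 and with the filterByExpr filter at 0.83 (adjusted p = 0.0326 and 0.0317).

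Skil (chr3:31095058-31122577, plus strand, GRCm38) passed as higher in all 3 cell types of PH against L. In hepatocyte nuclei its lowest, median and highest values were 17.1, 22.01 and 26.8 TMM CPM in L, 26.7, 39.4 and 60.04 in CS, and 45.3, 60.2 and 77.5 in PH. PH lay wholly above L, and CS lay between with overlap on both sides. Its log2 fold change was 0.95 from L to CS (SE 0.15, adjusted p = 2.18e-05, edgeR) and 1.40 from L to PH (SE 0.15, 2.63-fold, adjusted p = 2.68e-09, edgeR). The smaller step from CS to PH, 0.45 (SE 0.15, adjusted p = 0.0129, edgeR), missed the threshold with pool as a covariate, at 0.29, and without mouse 7, at 0.38 (adjusted p = 0.0546 and 0.0509, edgeR), and was -0.04 when unspliced UMIs were counted alone. In stellate nuclei the values were 28.3, 37.0 and 50.6 in L and 50.9, 105 and 193 in PH, without overlap, with a log2 fold change of 1.64 (SE 0.29, adjusted p = 4.23e-06, edgeR), which did not pass with pool as a covariate, at 1.25. Endothelial Skil was higher by 0.60 (SE 0.18, adjusted p = 0.00742, edgeR), from 49.1 ± 9.31 to 71.96 ± 22.3 TMM CPM. That call was lost with pool as a covariate at 0.20, with unspliced UMIs alone at 0.26 and when thinned at 0.54 (adjusted p = 0.674, 0.504 and 0.280, edgeR). Within the 2 pools that held both groups the endothelial difference was -0.11 and -0.063 on the log2(CPM + 1) scale.

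**Figure D4:**
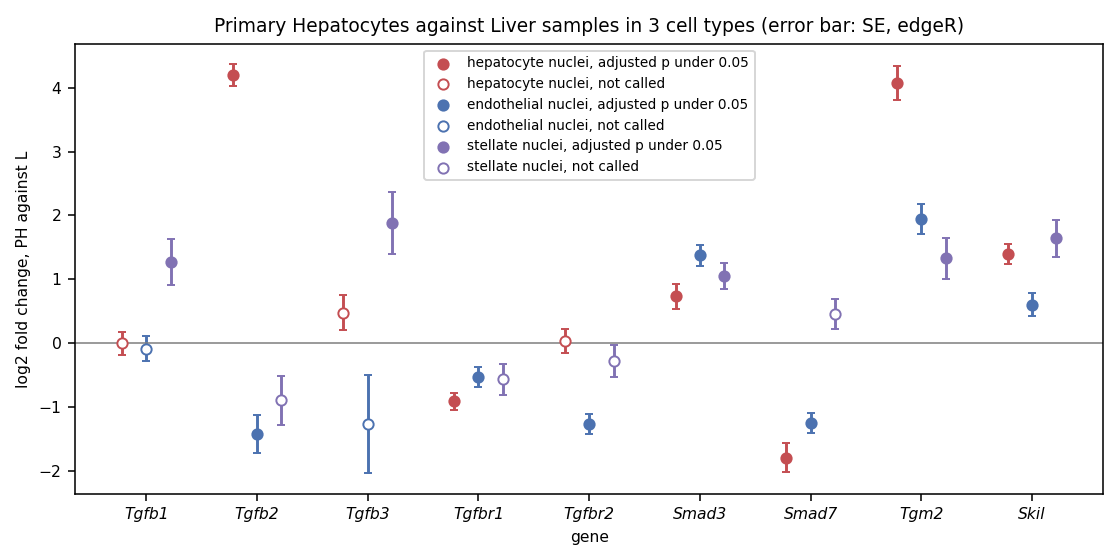
Log2 fold changes of the members in PH against L in hepatocyte, endothelial and stellate nuclei (error bars SE, filled points adjusted p under 0.05 by edgeR, open points not called). Tgfb2 is at 4.20 in hepatocyte and -1.43 in endothelial nuclei of PH, while Smad3 is above 0 in all 3 cell types.

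Whether hepatocytes and endothelial cells responded differently was tested directly, as the endothelial minus the hepatocyte log2 fold change in 1 edgeR fit over both cell types with a term for each sample, since the endothelial and hepatocyte sums of a sample share it. From L to PH, 4 members differed, where 25.1% of 27025 genes did. They were Tgfb2 at -5.76 (SE 0.29, adjusted p = 1.06e-34, edgeR), Tgm2 at -2.28 (SE 0.22, adjusted p = 4.12e-16, edgeR), Tgfbr2 at -1.49 (SE 0.21, adjusted p = 5.73e-09, edgeR) and Skil at -0.92 (SE 0.21, adjusted p = 0.000340, edgeR). All 4 were thus lower in the endothelial response. Without cluster 24, which takes nuclei from L and CS only, the Tgfb2 difference was -3.39. The differences of Smad7 at 0.36 (SE 0.22, adjusted p = 0.262, edgeR), Tgfbr1 at 0.22 (SE 0.20, adjusted p = 0.484, edgeR) and Smad3 at 0.43 (SE 0.18, adjusted p = 0.0753, edgeR) missed the threshold, and that of Smad3 passed without mouse 3, 6, 7 or 8 (0.56 to 0.66) and that of Smad7 without mouse 3 (0.77). The Smad3 difference also passed with RLE at 0.52, with genes of at least 1 count at 0.48, with the filterByExpr filter at 0.64 and with nuclei of at least 1000 UMIs at 0.68 (adjusted p = 0.0253, 0.0384, 0.00414 and 0.00289, edgeR). The Smad7 difference passed with nuclei of at least 1000 UMIs at 0.59, and that of Tgfb3 with library size scaling at -2.43 (adjusted p = 0.0361 and 0.0466, edgeR). From L to CS, 3 members differed, against 2.46% of all genes: Tgfb2 at -2.34, Tgm2 at -1.02 and Skil at -0.87. Without cluster 24, Tgfb2 at -0.99 and Tgm2 at -0.85 missed the threshold there (adjusted p = 0.385 and 0.0537, edgeR), and without mouse 1 so did Skil at -0.82. With spliced and ambiguous UMIs alone Tgm2 at -0.77 and Skil at -0.76 missed it, and when thinned Tgfb2 at -1.90, Tgm2 at -0.68 and Skil at -0.95. Endothelial markers in endothelial nuclei summed to 13015 to 17146 plain CPM in L and 6125 to 10232 in PH with all 12 detected, and 1733 of the 1809 PH endothelial nuclei were in a single cultured cluster.

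The choice of scaling bears on these directions in culture. In hepatocyte PH against L the median change over all genes was 0.10 on the log2 scale with TMM, 0.20 with RLE factors and 0.66 with library size alone. Called genes split 7330 higher and 7049 lower with TMM, and 13078 higher and 4196 lower with library size. Relative to the median of all genes, Tgfb1 stood at -0.11 with TMM and -0.09 with library size, and Tgfb2 at 4.10 and 4.11. Without that correction, library size turned Tgfb1 to 0.57 (adjusted p = 0.0116, edgeR) and made Tgfb3 and Tgfbr2 pass as higher. Hepatocyte PH against CS behaved alike, with 7207 genes higher and 6293 lower with TMM and 12740 and 3140 with library size. Hepatocyte CS against L split 2183 and 3800 with TMM, 2800 and 3062 with RLE and 1381 and 5556 with library size. In endothelial PH against L the split was 2817 higher and 3364 lower with TMM and 3533 and 2662 with RLE, in PH against CS 1706 and 1950 with TMM and 2600 and 1474 with library size, and in CS against L 371 and 341 with TMM and 473 and 213 with RLE. In stellate PH against L it was 1176 and 2381 with TMM and 2127 and 1149 with library size, and in CS against L 119 and 206 with TMM and 206 and 34 with RLE. The difference between the cell types split 3138 and 3645 with TMM and 2253 and 5169 with library size for PH against L, and 172 and 492 with TMM and 214 and 273 with library size for CS against L. Every member called with TMM kept its direction under both other scalings, and 1 of those calls, the CS against L difference of Skil, was lost with library size, at -0.73.

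The share of a member's UMIs found in each cell type differed between the groups. In L, hepatocyte nuclei held 89.3% of all UMIs but only 12.7% of the Tgfb1 UMIs and 25.8% of the Tgfb2 UMIs. Endothelial and Kupffer nuclei held 45.4% and 28.5% of the Tgfb1 UMIs, and endothelial nuclei 36.5% of the Tgfb2 UMIs. In CS the hepatocyte share of Tgfb2 was 71.5%, where hepatocyte nuclei held 94.6% of all UMIs. In PH it was 98.2%, close to their 96.4% of all UMIs. The hepatocyte share of Tgfb1 in PH was 39.2%, with 49.0% in endothelial nuclei, which also held 57.2% of it in CS and so held more of it than hepatocyte nuclei in all 3 groups. These shares also follow the makeup of each sample, in which endothelial nuclei were 12.4% in L, 7.65% in CS and 9.83% in PH.

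**Figure D5:**
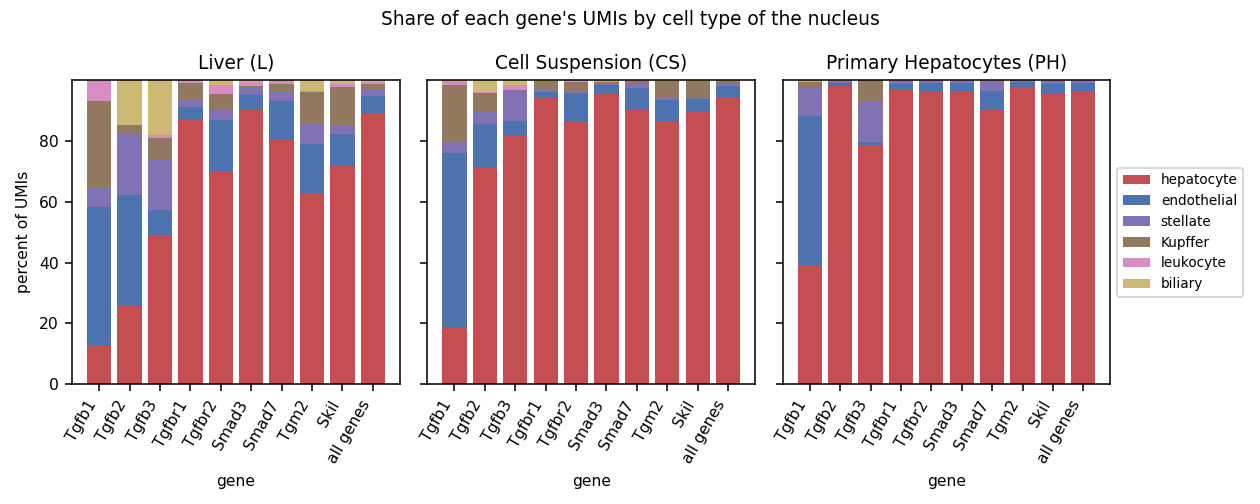
Share of each member's UMIs found in each cell type (stacked bars, percent, summed over the samples of L, CS and PH), beside the share of all UMIs. The hepatocyte part of Tgfb2 grows from 25.8% in L to 98.2% in PH, and that of Tgfb1 from 12.7% to 39.2%. The hepatocyte part of all UMIs is 89.3% in L and 96.4% in PH.

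The split of UMIs between spliced and unspliced RNA gave a second readout of the members that rose. Unspliced RNA was 74.2% ± 1.70 of all UMIs in hepatocyte nuclei of L, 66.5% ± 3.15 in CS and 64.0% ± 1.71 in PH (SD, n = 8). Skil went from 47.3% ± 5.33 to 43.4% ± 4.42 and 31.8% ± 2.27, and Tgfb2 from 89.6% ± 3.65 to 80.1% ± 11.5 and 75.4% ± 2.14. The unspliced share thus fell for both members and for all genes together. Tgm2 changed from 63.1% ± 5.06 to 53.7% ± 6.46 from L to PH. These shares are a description and were not tested.

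The rest of the pathway was read from lists of its genes. The target list holds 40 genes commonly described as TGF-beta targets. In hepatocyte PH against L 20 of them were higher and 9 lower, with a median log2 fold change of 0.67 beside 0.10 over all genes, and 72.5% of the list called beside 53.7%. In PH against CS 16 were higher and 12 lower, with a median of 0.050 beside 0.019 over all genes, and 70.0% of the list called beside 50.4%. The medians were not tested. Ccn2, a matricellular growth factor, rose from 0.182 ± 0.251 to 23.7 ± 4.66 TMM CPM, a log2 fold change of 6.75 (SE 0.41, adjusted p = 5.20e-15, edgeR). Ldlrad4, a membrane protein that limits Smad phosphorylation, fell by 3.30 on the log2 scale (SE 0.18, adjusted p = 8.18e-16, edgeR), and Bhlhe40, a transcriptional repressor, fell by 1.34 (SE 0.24, adjusted p = 1.82e-05, edgeR).

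In hepatocyte PH against L the lists of other receptors, SMADs, inhibitors and ligands each held more genes that fell than rose, and the list of latency and activation more that rose. The lists were counted with TMM only, so these balances may differ under other scalings. Of 10 other receptors and co-receptors none rose and 6 fell by edgeR, with the co-receptor Tgfbr3 (betaglycan) at -2.91 (SE 0.13) and the type I receptor Acvr1 at -1.48 (SE 0.13). Of 9 other SMADs and adaptors 2 rose and 5 fell. Smad9 was at -4.37 (SE 0.27) and Smad6, the BMP-side inhibitor, at -4.07 (SE 0.37), while the shared partner Smad4 rose by 0.38 (SE 0.11) and Smad2, the other receptor Smad, fell by 0.31 (SE 0.11). Of 10 inhibitors and corepressors 2 rose, Pmepa1 at 4.18 (SE 0.20) and Tgif1 at 1.28 (SE 0.19), and 4 fell. Of 16 genes on the list of latency and activation 8 rose and 1 fell. The rises were led by the latent TGF-beta activator Thbs1 at 5.79 (SE 0.38) and the protease Mmp14 at 1.93 (SE 0.25). That list also held the follistatin family genes Fst, Fstl1 and Fstl3, so its counts are not of latency and activation alone. Of 13 other ligands of the family 4 rose and 6 fell, with Gdf15 at 1.64 (SE 0.30) and Inhbe, an activin subunit gene of hepatocytes, at -4.64 (SE 0.18). Each of these passed at adjusted p under 0.05 by edgeR. The share called was 60% of the receptors, 77.8% of the SMADs, 60% of the inhibitors, 56.2% of the latency genes and 76.9% of the ligands, beside 53.7% of all genes. In PH against CS the balance was kept for receptors (1 higher, 6 lower) and ligands (2 and 8) but not for SMADs (3 and 3) or inhibitors (1 and 1), and the latency list had 4 and 2 with a median of 0.023. The shares called there were 70.0%, 76.9%, 66.7%, 20.0% and 37.5%, in that order, beside 50.4% of all genes.

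Some of the target genes rose during isolation, before any culture. In hepatocyte CS against L 11 of 40 targets were higher and none lower by edgeR, with 27.5% of the list called beside 22.3% of all genes. Ccn1 rose from 11.6 ± 5.54 to 281 ± 82.5 TMM CPM and Junb from 27.4 ± 12.9 to 304 ± 79.8 (SD, n = 8). Ccn1, a matricellular protein, and Junb, an AP-1 subunit, are also immediate early genes that answer many stimuli. Both passed in endothelial, Kupffer and stellate nuclei of CS against L as well, as did the stress-responsive ligand Gdf15.

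In endothelial PH against L, 36 of the 40 targets could be tested, and 12 rose and 10 fell, 61.1% of those tested beside 33.8% of all genes. The cell cycle inhibitor Cdkn1a was at 3.97 (SE 0.27), against Nuak1 at -3.78 (SE 0.27) and the collagen gene Col5a2 at -3.27 (SE 0.40). Of the 10 other receptors and co-receptors 1 rose and 6 fell, 70.0% of the list. Eng (endoglin), the endothelial co-receptor, had 810, 942 and 1129 TMM CPM in L (lowest, median and highest) and 186, 253 and 376 in PH, without overlap. Its log2 fold change was -1.93 (SE 0.17, adjusted p = 2.66e-12, edgeR), and in hepatocytes, where it was at 6.11 ± 1.82 in L, it did not pass. Of 14 genes tested from the list of latency and activation, 5 rose and 3 fell, 57.1% of those tested. Among them the ligand carrier Ltbp4 was at -3.33 (SE 0.26) and Nrros at -2.25 (SE 0.21), while the integrin subunit Itgav rose by 1.92 (SE 0.21). Of 11 other ligands of the family tested, 2 rose and 4 fell, 54.5% of those tested. Inhbb, the activin beta B subunit, rose from 10.1 ± 4.14 to 118 ± 42.3 TMM CPM.

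In stellate PH against L, 35 targets could be tested and 10 rose and 10 fell, 57.1% of those tested beside 24.8% of all genes. Cdkn1a was at 5.74 (SE 0.46), against Tgfbi at -2.67 (SE 0.32) and Ldlrad4 at -2.54 (SE 0.32). The activin subunit gene Inhba rose from 17.5 ± 11.7 to 168 ± 85.0 TMM CPM. Of the 10 other receptors and co-receptors none rose and 5 fell by edgeR, 50.0% of the list, among them Acvr2a at -2.08 (SE 0.21), Tgfbr3 at -1.75 (SE 0.19) and Eng at -1.03 (SE 0.24). The corepressor Ski, the closest relative of Skil, was at -1.84 (SE 0.23), and in endothelial nuclei at -0.89 (SE 0.16), both lower by edgeR, while Skil was higher in both. Tgfbr3 thus fell in both hepatocyte and stellate nuclei of PH.

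The genes whose levels most resembled each member over the 14 combinations of group and cell type were found among 14841 genes by Pearson's r of mean log2(CPM + 1). For Tgfb2 they were Ttc26 (r = 0.953), Gm17501 (0.935) and Cep126 (0.906). For Tgfb1 they were Nxpe4 (0.934), Msn (0.932) and Atp1b3 (0.932). Smad7 resembled Map2k6 (0.870) and, within the pathway, Tgfbr3 (0.855). Tgm2 was most like Parp12 (0.927), Skil like Hk2 (0.912), Smad3 like Aff4 (0.919), Tgfbr1 like Pla2g15 (0.922), Tgfbr2 like Wdr44 (0.936) and Tgfb3 like Wnk2 (0.886). The 14 points share libraries and mice, and the values are a description without a test.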

How the data were processed

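The authors sequenced nuclei with 10x 3' chemistry, quantified them with Salmon Alevin and Alevin-fry on GRCm38 (spliced and unspliced transcriptome), assigned hashtags, removed doublets between samples, inferred others with scDblFinder and clustered in Seurat. They deposited raw counts (UMIs) per barcode and gene as spliced, unspliced and ambiguous. These 3 were added, and summed per sample and cell type where at least 10 nuclei were present. The hashtag CD2 was read as CS2. The 276 PH nuclei annotated as non-cultured types were kept. The hashtag count matrices were not used here.

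Genes with at least 10 counts over the samples of a fit were tested by group with edgeR 4.0.16 (TMM, quasi-likelihood, Benjamini-Hochberg, threshold 0.05) in R 4.3.3, on sums made in Python 3.11.15. The scripts were tested on simulated data. DESeq2 1.42.0, other scalings, filters, splicing states, depth, pools and left-out mice were alternatives. Members and gene lists were chosen with earlier results of these data known. Besides the members, each list gave per comparison up to 2 called genes that rose most and up to 2 that fell most, of mean 5 CPM or more in a group, plus Ccn2, Tgfbr3, Eng and Smad2. A gene that the rule also names is not reported here. All 9 members were tested in the reported fits. Mouse numbers mark 1 liver each, which is why samples pair. Same-mouse deviations of hepatocyte L and CS correlated at 0.274 to 0.796 over 12270 genes, and those of L and PH at a median of 0.0286. Intervals and limits cover counting error only. The p-values of the group comparisons measure the spread between samples of these 8 mice, which includes any spread between pools. Those of the difference between cell types measure the spread left after a term for each sample.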

Additional observations from a re-analysis of the deposited data

Results flagged for a closer look

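Single samples stood apart from the rest of their group in 8 of 98 sets of TMM CPM values examined, and chance alone marks about 1 in 20. In hepatocyte nuclei of L, Tgfb1 was lowest in mouse 2, at 0.437, with the next sample at 1.25. In endothelial nuclei, Tgfb3 of CS was highest in mouse 3, at 7.03, and Tgfbr1 of PH lowest in mouse 2, at 45.6. In Kupffer nuclei of CS, Tgfbr2 was lowest in mouse 8, at 80.0, and Smad3 highest in mouse 7, at 189. In stellate nuclei, Tgfb2 of L was highest in mouse 7, at 163, Tgfb3 of CS in mouse 2, at 53.7, and Tgfbr1 of PH in mouse 3, at 206.

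The endothelial and hepatocyte responses differed, as endothelial minus hepatocyte log2 fold change in 1 edgeR fit, for 4 members from L to PH and 3 from L to CS. Of all genes tested, 25.1% differed from L to PH and 2.46% from L to CS. From L to PH the members were Tgfb2 at -5.76, Tgm2 at -2.28, Tgfbr2 at -1.49 and Skil at -0.92. The Tgfb2 difference was smaller without cluster 24. From L to CS the members were Tgfb2 at -2.34, Tgm2 at -1.02 and Skil at -0.87. None of these L to CS differences passed when thinned to equal depth, and those of Tgfb2 and Tgm2 did not pass without cluster 24.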

How the results depend on the processing

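The number of members called changed by more than 1.5 times in these settings. For the endothelial minus hepatocyte difference from L to CS, where 3 were called, 1 was with spliced and ambiguous UMIs, 0 when thinned to equal depth and 1 without cluster 24. In endothelial nuclei of PH against L, 4 in place of 7 were called with pool as a covariate. In endothelial nuclei of CS against L the count of 1 went to 2 with library size scaling and to 0 with spliced and ambiguous UMIs, with pool as a covariate, when thinned and without cluster 24, and it ranged from 0 to 2 when 1 mouse was left out (0 without mouse 2 or 5, 2 without mouse 1). In Kupffer nuclei of CS against L, DESeq2 and the filterByExpr filter each called 1. In stellate nuclei of PH against L the 5 calls became 2 with filterByExpr, which kept 2101 genes and of the members tested only Tgfbr1, Smad3 (called at 1.63) and Smad7 (newly called at 1.03), 3 with spliced and ambiguous UMIs and 1 with pool as a covariate. Directions turned for Tgfb1 in hepatocyte nuclei with library size scaling, to 0.57 for PH against L and 0.68 for PH against CS, for Skil in hepatocyte nuclei of PH against CS with unspliced UMIs, to -0.040, and for Tgfb2 in endothelial nuclei of PH against L without cluster 24, to 1.05, a setting that takes nuclei from L and CS only. Within pools, Skil turned to -0.038 in hepatocyte nuclei of PH against CS in pool 3, and to -0.11 and -0.063 in endothelial nuclei of PH against L in pools 2 and 5. The cause was not tested. With the mouse as a replicate block, which pairs samples of 1 liver, 6, 6 and 3 members were called in hepatocyte nuclei (PH against L, PH against CS, CS against L), 7, 4 and 1 in endothelial nuclei, 0 in Kupffer nuclei, and 0 (CS against L) and 5 (PH against L) in stellate nuclei, the same counts as without it. Of the log2 fold changes recomputed, 1850 kept their call and direction or were uncalled in both, 41 passed only in the alternative, 36 only in the reported setting and 4 turned. DESeq2 gave Tgfb3 no adjusted p in endothelial nuclei of PH against CS or CS against L. Library size scaling and leaving out clusters 8 and 24 were chosen after seeing the data. Of the 4 cell types tested, the stellate and Kupffer sums were the shallowest.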

Other observations

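The biliary class of the authors, which had the highest mean of Tgfb2, Tgfb3 and Tgm2 in L with a range that overlapped the next type's, held 2 clusters that differed in their members. Cluster 28, with 157 of the 220 L nuclei (71.4%), had 234 plain CPM of Tgfb2, 62.8 of Tgfb3, 361 of Tgfbr2 and 135 of Smad3. Cluster 30, with 63 L nuclei, had 125, 0, 34.1 and 375 plain CPM of the same genes. Over all groups, mesothelial markers summed to 2887 plain CPM in cluster 28 and 8.56 in cluster 30, and biliary markers to 3906 and 10182. Mesothelial cells line the liver surface. Cluster 28 held no PH nucleus and 1 CS nucleus. The values are descriptions of pooled nuclei, and the 2 clusters were picked after their values were seen.

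Endothelial cluster 26 of L shared the high Tgfbr2 of cluster 24, at 408 and 426 plain CPM against 190 in cluster 3, but not its Tgfb2, at 4.04 against 304. Cluster 24 made up 5.52% to 22.4% of endothelial nuclei over the 8 L samples. In the stellate cells, the cultured cluster 27 held 114 plain CPM of Tgfb1 and 66.0 of Tgfb3, and cluster 20, with 878 of its 1039 nuclei from L, 26.2 and 8.23.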
